A study of Mus musculus with 12 samples.

Results

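Pressure overload by transverse aortic constriction (TAC) was compared with sham surgery in hearts of Adam12 knockout mice, labelled A12KO. The comparison rests on 6 of the 12 arrays of the series, 3 A12KO TAC and 3 A12KO sham, chosen by their labels. All 26989 genes read on a probe set with exactly 1 symbol were tested. Every mouse was a male of strain C57BL/6J, given as 10 weeks old, and hearts were collected 2 weeks after surgery. The other 6 arrays were wild-type hearts, 3 after TAC and 3 after sham. They share the fit's estimate of spread and are used only to set each gene's response in the other genotype beside that of the knockout. The labels call the 3 hearts of a group biological replicates. They do not say how the Adam12 allele was made, whether ADAM12 was missing from all tissues, or whether atria were kept with the ventricles.

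TAC narrows the aortic arch, so that the left ventricle pumps against a higher pressure. Heart muscle under such load is known to enlarge, to take up parts of a fetal gene program and to shift its fuel use, while fibroblasts lay down extracellular matrix. ADAM12 is a membrane-anchored metalloprotease known to release growth factors of the EGF family from the cell surface, and it is made mainly by mesenchymal cells.

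The probe set of Adam12 was dim and also carries the symbol 5830403F22Rik, and which part of the gene its probes cover is not known. Within the knockout it read 4.33, 4.40 and 4.32 after sham surgery and 4.25, 4.40 and 4.36 after TAC, on the log2 scale used for every level here. The TAC difference was -0.02 ± 0.09 (SE, adjusted p = 0.958). The 6 knockout arrays, at 4.25 to 4.40, all lay below the 6 wild-type arrays, at 4.46 to 4.80, on this probe set. All 12 lay below the median of 5.93 over negative control probe sets and above that of 3.11 over background probe sets. The control median was itself above the median of every array, 5.06 to 5.19. At such levels this narrow gap says little about the allele.

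Markers of heart muscle were bright on all 6 arrays, with the mean over 12 measured cardiomyocyte markers between 16.46 and 16.51 after sham surgery and between 16.30 and 16.40 after TAC. Markers of atrial muscle set individual arrays apart. Myl7, the atrial myosin light chain, read 12.83, 15.97 and 12.57 in sham replicates 1 to 3 and 14.19, 12.28 and 11.41 in TAC replicates 1 to 3. Sln, the atrial regulator of the calcium pump, read 12.69, 16.25 and 12.41 after sham surgery and 14.46, 13.27 and 11.22 after TAC. Bmp10, a ligand made by atrial muscle, read 4.89, 9.91 and 4.27 after sham surgery and 13.51, 8.34 and 4.40 after TAC. Sham replicate 2 was highest of the sham hearts for all 3 genes, and TAC replicate 1 was highest of the TAC hearts. The surgeries overlapped for each of the 3. The mean over the 10 measured atrial markers ranged from 9.43 to 11.50 after sham surgery and from 9.19 to 11.20 after TAC. In bulk tissue, fewer cells of a type and less RNA per cell cannot be told apart, and the part of the atrial markers in the results that follow was not tested beyond the values given without those arrays.

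**Figure D1:**
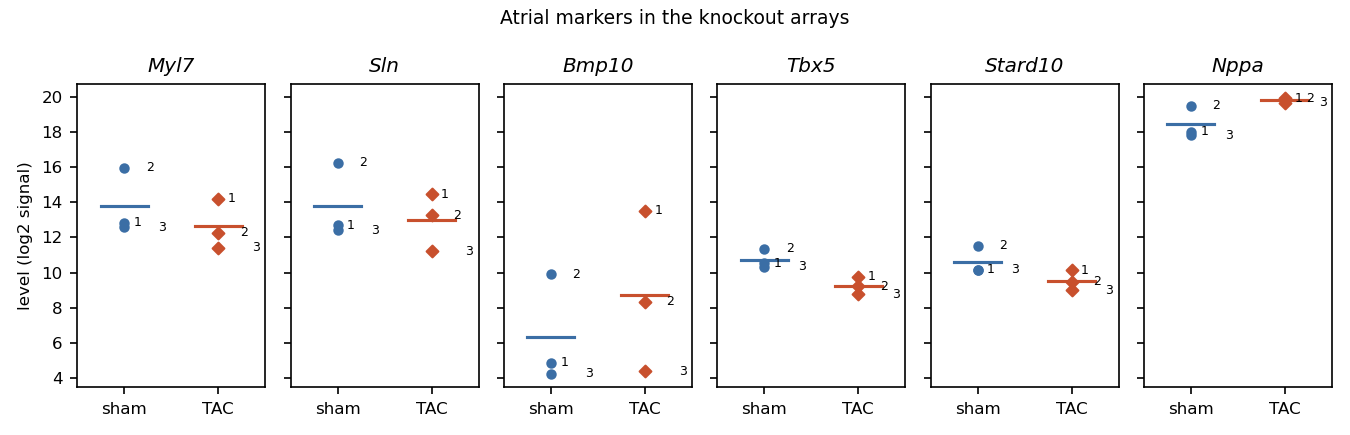
Log2 signal of 6 atrial markers on the knockout arrays, sham (circles) and TAC (diamonds), 1 point per heart with its replicate number and a line at the group mean. Sham replicate 2 (Myl7 at 15.97) and TAC replicate 1 (Myl7 at 14.19) stand above the other hearts of their group.

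After TAC 3444 of 26989 genes, 12.8%, passed an adjusted p of 0.05 in the limma fit, 1910 of them higher (7.08%) and 1534 lower (5.68%). These shares over all genes are the background for the counts of called list members that follow. The highest-ranked rises were of fibroblast matrix genes and the deepest falls of genes of fatty acid handling, a potassium channel and a matrix protease inhibitor. Of the genes that rose, 333 rose more than 2-fold, 50 more than 4-fold and 18 more than 8-fold. Of those that fell, 135 fell more than 2-fold and 5 more than 4-fold. The median over all genes was -0.03. The 3 TAC arrays lay wholly above or wholly below the 3 sham arrays for 8713 genes, 32.3%, above for 15.4% and below for 16.9%. The count of genes passing was 2206 without sham replicate 3 and 2098 without TAC replicate 2. Without both arrays of highest Myl7 it was 2186, and with the Myl7 level as a covariate 3083, alternatives chosen after seeing the data. Only 116 genes passed a test that the change exceeds 1.5-fold.

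The 15 highest rises were dominated by secreted matrix proteins. Cilp, a cartilage-type matrix protein of activated heart fibroblasts, read 8.70, 8.03 and 8.36 after sham surgery and 13.06, 13.01 and 13.14 after TAC. Its 26.1-fold rise was 4.71 ± 0.67 on the log2 scale (adjusted p = 0.00109). The TAC hearts were close to one another and more than 4 log2 units above every sham heart. Thbs4, a thrombospondin of the loaded heart, read 8.67, 8.06 and 8.37 after sham surgery and 12.69, 12.96 and 13.25 after TAC, a rise of 4.60 ± 0.65 (adjusted p = 0.00101). Postn, the matricellular protein periostin, read 12.02, 11.85 and 11.79 after sham surgery and 16.38, 16.78 and 16.21 after TAC, a rise of 4.57 ± 0.45 (adjusted p = 0.000389). No TAC heart overlapped a sham heart for either gene. Serpina3n, a secreted protease inhibitor, varied more within groups. It read 9.34, 9.62 and 8.02 after sham surgery and 13.89, 14.37 and 12.22 after TAC, with replicate 3 lowest in both groups, and rose by 4.50 ± 0.57 (adjusted p = 0.000655).

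**Figure D2:**
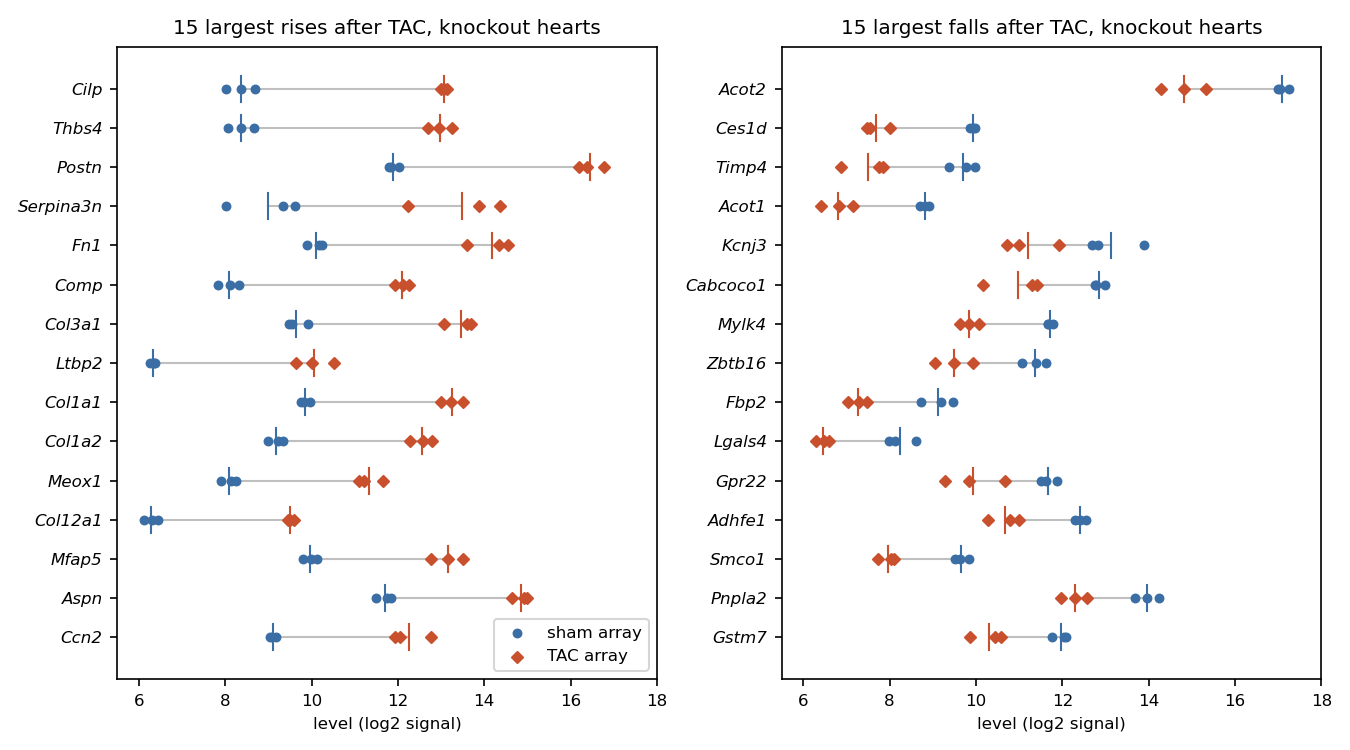
Log2 signal of the 15 genes with the largest rise (left) and the 15 with the largest fall (right) on each knockout array, sham circles and TAC diamonds, with a vertical line at each group mean. The groups do not overlap for any of them, as the choice of genes required, and Cilp (4.71) and Acot2 (-2.29) lead.

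Promoters are shown for the genes whose response is described closely and whose promoter holds letters of a factor known in loaded or energy-burning heart muscle. These are Thbs4 and Col3a1 of the largest rises, Nppb and Acta1 of the stress genes, and Mylk4 and Smco1 of the largest falls. Each is the 200 bases before the first listed start in RefSeq (GRCm38.p6), 5′ to 3′ on the gene's strand. Capitals mark GGAATG, the core bound by TEAD factors, in the first 4 sequences. In Col3a1, Nppb and Acta1 capitals also mark TATAAA, the letters of the TATA box, wherever they stand. Capitals mark AAGGTCA, the site form of estrogen-related receptors, in the last 2. All are read on either strand, so that GGAATG also appears as CATTCC and AAGGTCA as TGACCTT.
Thbs4 (chr13:92794819-92795018, minus strand): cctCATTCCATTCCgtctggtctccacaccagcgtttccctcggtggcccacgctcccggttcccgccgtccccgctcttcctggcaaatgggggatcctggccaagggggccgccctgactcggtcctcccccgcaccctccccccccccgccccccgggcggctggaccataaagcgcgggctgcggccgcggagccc
Col3a1 (chr1:45311338-45311537, plus strand): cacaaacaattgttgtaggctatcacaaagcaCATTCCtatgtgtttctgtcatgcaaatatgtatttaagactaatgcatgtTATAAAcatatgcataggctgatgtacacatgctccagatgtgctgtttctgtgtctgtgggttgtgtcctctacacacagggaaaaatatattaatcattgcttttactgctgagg
Nppb (chr4:147985700-147985899, plus strand): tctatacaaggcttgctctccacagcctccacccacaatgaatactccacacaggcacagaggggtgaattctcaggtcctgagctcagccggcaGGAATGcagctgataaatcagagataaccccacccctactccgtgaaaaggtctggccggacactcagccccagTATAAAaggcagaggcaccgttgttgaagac
Acta1 (chr8:123894776-123894975, minus strand): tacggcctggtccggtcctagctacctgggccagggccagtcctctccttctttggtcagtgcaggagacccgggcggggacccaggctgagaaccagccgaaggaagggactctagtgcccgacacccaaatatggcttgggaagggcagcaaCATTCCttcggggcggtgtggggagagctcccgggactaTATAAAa
Mylk4 (chr13:32783965-32784164, minus strand): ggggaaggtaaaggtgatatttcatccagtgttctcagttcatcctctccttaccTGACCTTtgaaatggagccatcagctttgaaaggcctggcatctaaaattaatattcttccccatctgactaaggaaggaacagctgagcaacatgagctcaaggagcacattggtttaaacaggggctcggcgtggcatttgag
Smco1 (chr16:32271280-32271479, plus strand): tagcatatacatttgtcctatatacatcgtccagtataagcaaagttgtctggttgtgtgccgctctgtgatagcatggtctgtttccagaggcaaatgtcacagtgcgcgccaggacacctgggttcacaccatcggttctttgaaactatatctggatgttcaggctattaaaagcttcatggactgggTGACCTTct
In Thbs4 a pair of TEAD cores overlap by 1 base, beginning at positions -197 and -192 from the start. In Nppb the TEAD core begins at -105 and the TATAAA letters at -31, and in Acta1 at -46 and -7. In Col3a1 they begin at -168 and -117. The receptor site begins at -145 in Mylk4 and at -9 in Smco1.

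A promoter of 250 bases before to 50 after the start was listed for 16289 of the 26989 genes, among them 1338 called higher and 1138 called lower. The TEAD core stood in 13.6% of all promoters, 13.5% of those called higher and 14.1% of those called lower. The TATA box stood in 12.9%, 9.94% and 8.26%, and the AP-1 site TGANTCA in 7.46%, 6.20% and 5.45%. The receptor site AAGGTCA was in 4.21% of all, 2.39% of the higher and 5.54% of the lower. For NRF1 (CGCATGC) the shares were 4.37%, 4.71% and 6.68%, and for E2F (TTCCCGC) 5.85%, 6.13% and 7.82%. Among the 32 promoters of genes that rose more than 4-fold, 8 held the TEAD core, 10 the TATA box, 5 the AP-1 site, 1 the E2F letters and 0 the receptor site or the NRF1 letters. Motifs were searched on both strands, and letters shared by different motifs counted for each. Median GC content was 56.0% over all promoters, 60.7% in the higher and 60.0% in the lower, and 54.7% in those of more than 4-fold. The shares are descriptions of letters, not of binding.

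Collagens that build fibres rose together. Of 10 measured fibrillar collagen genes 7 rose and 0 fell, with a median difference of 0.87 against -0.03 over all genes. Col3a1 read 9.54, 9.92 and 9.48 after sham surgery and 13.70, 13.61 and 13.06 after TAC, a rise of 3.81 ± 0.38 (adjusted p = 0.000389). Col1a1 read 9.83, 9.96 and 9.77 against 13.51, 13.24 and 12.99, a rise of 3.40 ± 0.42, and its partner chain Col1a2 rose by 3.37 ± 0.40. The rises of the type I chains were 10.5-fold and 10.3-fold, with every TAC heart above every sham heart. Col5a2 and Col5a1, which help to set fibre diameter, rose by 2.62 ± 0.29 and 1.21 ± 0.15. Among 29 other collagen genes 11 rose and 1 fell, with a median of 0.24. The fall was lost without sham replicate 2, sham replicate 3 or TAC replicate 2. They included the basement membrane chains Col4a1 and Col4a2, higher by 2.01 ± 0.20 and 2.04 ± 0.19, the microfibril chains Col6a1, Col6a2 and Col6a3, higher by 1.67 to 2.14, and the fibre-surface chain Col12a1, higher by 3.22 ± 0.43.

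The enzymes that mature collagen rose as well. Of 20 genes of collagen processing and crosslinking 14 rose and 1 fell, with a median of 0.73, and 0 fell in 5 of the 6 fits without 1 knockout array, all but that without TAC replicate 1. Loxl1 and Loxl3, lysyl oxidases that crosslink elastin and collagen, rose by 2.45 ± 0.31 and 2.40 ± 0.31. Bmp1, which trims the collagen propeptide, read 8.53, 8.36 and 8.40 after sham surgery and 9.87, 9.79 and 9.52 after TAC, a rise of 1.30 ± 0.15 (adjusted p = 0.000528). Plod2, a lysyl hydroxylase, rose by 0.97 ± 0.12, and Serpinh1, the collagen chaperone HSP47, by 0.78 ± 0.16.

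Of 19 matricellular proteins 15 rose and 0 fell, with a median of 1.68. Tnc, tenascin C, read 5.01, 5.14 and 5.20 after sham surgery and 7.79, 8.34 and 8.21 after TAC, a rise of 3.00 ± 0.27 (adjusted p = 0.000389). Fn1, fibronectin, read 10.24, 10.16 and 9.90 against 14.55, 14.35 and 13.61, a rise of 4.07 ± 0.46 (adjusted p = 0.000446). For both genes the groups were separate by more than 2 log2 units. Ccn2, the connective tissue growth factor, rose by 3.15 ± 0.40, Comp by 4.02 ± 0.68 and Sparc, a collagen-binding protein, by 1.68 ± 0.17. Of 14 small leucine-rich proteoglycans 3 rose, with a median of 0.48, and 7 rose without wild-type TAC replicate 3. Aspn (asporin) rose by 3.16 ± 0.35 and Lum (lumican) by 2.12 ± 0.30. Bgn (biglycan) rose by 1.07 ± 0.25 (adjusted p = 0.0156), a call lost without sham replicate 3 or without TAC replicate 1. Fmod (fibromodulin) differed by 2.14 ± 0.67 without passing (adjusted p = 0.0588, and 0.0466 with the replicate block), and Dcn (decorin) by 0.47 ± 0.16 (0.0857, and 0.0235 with the block).

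Elastic fibre and basement membrane genes followed. Of 12 elastic fibre and microfibril genes 8 rose and 0 fell, with a median of 1.06. Ltbp2, a microfibril protein, read 6.37, 6.27 and 6.36 after sham surgery and 10.01, 10.53 and 9.64 after TAC, a rise of 3.73 ± 0.41 (adjusted p = 0.000446). Mfap5 rose by 3.18 ± 0.36 and Fbln5, which helps to assemble elastin, by 1.78 ± 0.28. Of 12 laminin and basement membrane genes 8 rose and 1 fell, with a median of 0.75, and 0 fell without sham replicate 2, sham replicate 3 or TAC replicate 1. Lamc1, a chain of most laminins, rose by 1.10 ± 0.11, and the laminin-binding Nid1 by 1.21 ± 0.17. In the hyaluronan and large proteoglycan list 5 of 12 rose and 0 fell. They included Vcan (versican), higher by 1.89 ± 0.27, and the hyaluronan receptor Cd44, higher by 1.25 ± 0.12.

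Matrix proteases and their inhibitors that passed mostly rose. Of 23 genes 13 rose and 1 fell, with a median of 0.59. Timp1, an inhibitor of metalloproteases, read 5.33, 5.39 and 5.29 after sham surgery and 7.90, 9.34 and 8.11 after TAC, a rise of 3.11 ± 0.35 (adjusted p = 0.000446). Timp4, the inhibitor most typical of healthy heart, went the other way. It read 9.76, 9.97 and 9.37 after sham surgery and 7.84, 6.88 and 7.75 after TAC, and fell by 2.21 ± 0.44 (adjusted p = 0.00688). The surgeries did not overlap for either inhibitor. The gelatinase Mmp2 rose by 2.79 ± 0.44, its membrane-bound activator Mmp14 by 2.33 ± 0.35 and stromelysin Mmp3 by 1.73 ± 0.20. Mmp9, the gelatinase of neutrophils, differed by -0.10 ± 0.08 and did not pass.

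ADAM12's relatives were measured on their own probe sets. Of 9 other ADAM genes 4 rose and 1 fell, with a median of 0.42. Adam9, Adam10, Adam15 and Adam17, all membrane-bound proteases that shed surface proteins, rose by 0.78 ± 0.09, 0.62 ± 0.07, 0.54 ± 0.07 and 0.42 ± 0.09. Adam22, a relative without protease activity, fell by 0.47 ± 0.10. EGF-family ligands and receptors showed no common direction, with 2 of 11 higher, 2 lower and a median of -0.01. Without TAC replicate 3, 1 was lower, without sham replicate 3, 1 was higher, and without sham replicate 1 or TAC replicate 1, 1 was higher and 1 lower. Without sham replicate 2 or TAC replicate 2, 1 was higher and 0 lower. The ligand epiregulin, Ereg, rose by 1.37 ± 0.21 (adjusted p = 0.0016). Erbb4, the neuregulin receptor of heart muscle, fell by 0.84 ± 0.19 (adjusted p = 0.0138), a call lost without sham replicate 2 or without TAC replicate 2. Among 19 integrin genes, receptors for matrix, 11 rose and 1 fell, with a median of 0.49. Without both arrays of highest Myl7, 7 rose. The fibronectin receptor chain Itga5 read 10.56, 10.52 and 10.32 after sham surgery and 11.76, 11.62 and 11.49 after TAC, a rise of 1.16 ± 0.14, and Itga9 rose by 1.32 ± 0.16.

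Markers of activated fibroblasts all rose, 11 of 11 measured, with a median of 3.24. The list holds several of the genes described above, and it was drawn up with these rises known. Its mean level lay between 7.48 and 7.67 in the sham hearts and between 10.61 and 10.91 in the TAC hearts. Meox1, a transcription factor of activated heart fibroblasts, read 8.24, 8.13 and 7.91 after sham surgery and 11.10, 11.66 and 11.22 after TAC, a rise of 3.23 ± 0.42 (adjusted p = 0.000712). Fap, a surface protease of such cells, rose by only 0.92 ± 0.10, though from 7.01 to 7.13 in the sham hearts to 7.90 to 8.06 in the TAC hearts without overlap. Among 11 general fibroblast markers 8 rose and 0 fell, with a median of 0.59. That count was 5 without sham replicate 1, TAC replicate 1 or TAC replicate 2, and 5 without both arrays of highest Myl7. Apart from matrix genes the rises were small. Ddr2, a collagen receptor, rose by 0.59 ± 0.11. Tcf21, the transcription factor of resting heart fibroblasts, rose by 0.45 ± 0.12, a call lost in 5 of the 6 fits that left out 1 knockout array, all but the one without TAC replicate 3. Of 16 fibroblast activation factors 6 rose, and 3 without sham replicate 3 or without both arrays of highest Myl7. Sox9 rose by 0.87 ± 0.17 and Fosl2, a member of AP-1, by 0.98 ± 0.13.

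Growth factor signalling genes were led by the TGF-beta family, the main inducers of matrix genes in fibroblasts. Of 19 genes 9 rose and 1 fell, with a median of 0.48. The ligand Tgfb2 read 7.91, 7.66 and 7.41 after sham surgery and 9.59, 9.79 and 9.53 after TAC, a rise of 1.98 ± 0.28 (adjusted p = 0.00100). Tgfb1 read 7.73, 7.59 and 7.59 against 8.44, 8.81 and 8.57, a rise of 0.97 ± 0.12. Both ligands were separate between the surgeries on all arrays. The receptors Tgfbr1 and Tgfbr2 rose by 1.05 ± 0.12 and 1.17 ± 0.14, and the follistatin-like protein Fstl1 by 2.71 ± 0.30. In the BMP and GDF list 4 of 23 rose and 0 fell, against 7.08% and 5.68% over all genes, with a median of 0.09. There 2 rose without sham replicate 1 or sham replicate 3 and 1 without TAC replicate 2, and 2 fell without TAC replicate 1. Among 26 WNT pathway genes 4 rose and 0 fell, with a median of 0.04, and the 3 with the smallest p were secreted inhibitors of WNT. Frzb read 8.66, 8.15 and 8.28 after sham surgery and 11.32, 11.61 and 11.01 after TAC, a rise of 2.95 ± 0.43 (adjusted p = 0.00122), and Sfrp1 and Sfrp2 rose by 2.02 ± 0.39 and 1.66 ± 0.25. Of 24 IGF, PDGF and FGF genes 8 rose and 2 fell, while 5 rose without sham replicate 3 or TAC replicate 2 and 1 fell without sham replicate 1 or TAC replicate 1. Igf1, a growth factor for heart muscle, rose by 1.33 ± 0.20, and Fgf13, a modulator of sodium channels, fell by 0.99 ± 0.13.

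In the angiotensin, endothelin and adrenergic list 3 of 19 genes rose and 4 fell. Ace, the angiotensin-converting enzyme, read 11.15, 11.05 and 10.90 after sham surgery and 13.16, 12.89 and 12.87 after TAC, a rise of 1.94 ± 0.23 (adjusted p = 0.000543). Corin, the protease that activates the atrial peptide ANP, read 13.91, 14.13 and 13.96 against 12.96, 12.82 and 12.65, and fell by 1.19 ± 0.15 (adjusted p = 0.000674). The surgeries were separate for both. Agtr1a, the main angiotensin receptor, fell by 0.88 ± 0.16 and the adrenergic receptor Adra1b fell by 0.70 ± 0.10. Genes of mechanical signalling through Hippo and SRF rose in 8 of 19 cases and fell in 0, with a median of 0.74, which was 0.37 without sham replicate 3. Besides Ccn2 they included Wwtr1, the co-activator TAZ, higher by 0.79 ± 0.10, and the tropomyosin Tpm4, higher by 0.99 ± 0.17. All 21 cytoskeletal genes of non-muscle cells had a positive difference and 15 rose, with a median of 0.63 and Anxa2 (annexin A2) highest of those named at 1.46 ± 0.14.

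**Figure D3:**
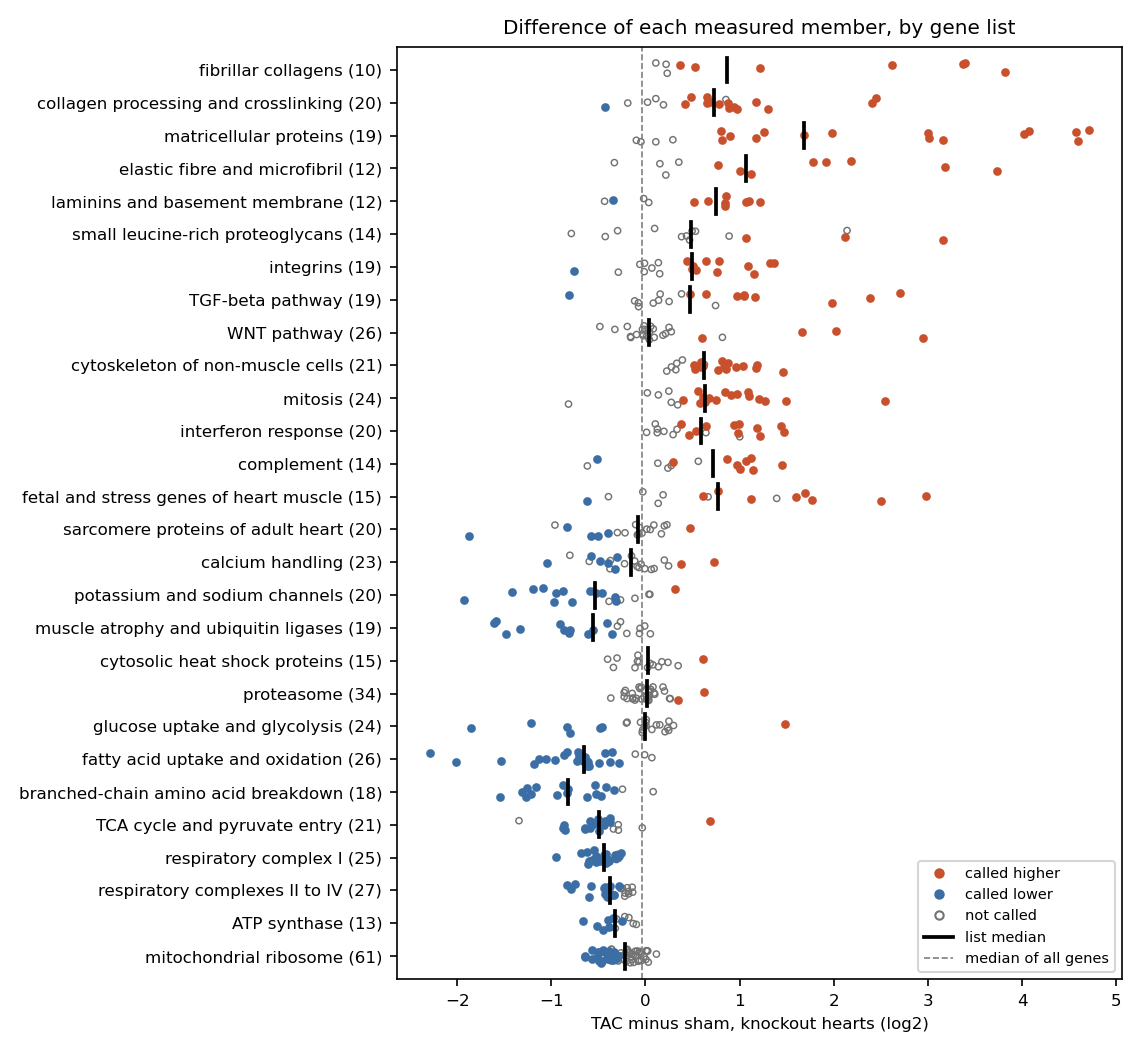
TAC minus sham difference (log2) of each measured member of 28 gene lists in knockout hearts, filled where called, with a black line at the list's median and a dashed line at the median of all genes. Number of members stands beside each list name. Matricellular proteins have the highest median, 1.68, and branched-chain amino acid breakdown the lowest, -0.82.

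The stress genes of heart muscle rose beside the matrix. Of 15 fetal and stress genes 8 rose and 1 fell, with a median of 0.77. The fall was lost without any 1 wild-type array and without any 1 knockout array except sham replicate 2 and TAC replicate 3. Acta1, the skeletal form of actin used by the fetal heart, read 14.38, 13.47 and 13.76 after sham surgery and 16.21, 17.11 and 17.20 after TAC, a rise of 2.97 ± 0.37 (adjusted p = 0.000625). Nppb, which encodes the natriuretic peptide BNP, read 13.19, 13.12 and 12.60 against 15.25, 15.69 and 15.47, a rise of 2.50 ± 0.32 (adjusted p = 0.000678). For both genes the lowest TAC heart lay well above the highest sham heart. The TEAD core and TATAAA letters in their promoters are printed above. Myh7, the slow fetal myosin, read 13.33, 13.35 and 13.38 against 15.32, 14.98 and 15.07, a rise of 1.77 ± 0.25. The adult myosin Myh6 read 19.38 in all 3 sham hearts and 19.31, 19.25 and 19.32 after TAC, a difference of -0.09 ± 0.06 (adjusted p = 0.437) near the top of the array's scale, whose highest value was 19.93. Xirp2, a protein of the intercalated disc, rose by 1.69 ± 0.23.

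Nppa, which encodes ANP and is also an atrial marker, did not pass. It read 18.01, 19.47 and 17.80 after sham surgery and 19.89, 19.91 and 19.66 after TAC, a difference of 1.39 ± 0.46 (adjusted p = 0.0761). Every TAC heart lay above every sham heart, and the sham replicate nearest to them was the one of highest Myl7. Without sham replicate 2 the difference was 1.92 (adjusted p = 0.0143), with the Myl7 level as a covariate 1.85 (0.00227), and with the replicate block its adjusted p was 0.0398. The TAC values are also near the top of the scale.

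Some genes of the adult contractile apparatus fell. Of 20 sarcomere genes 1 rose and 5 fell, with a median of -0.08, and 0 rose without sham replicate 2 or TAC replicate 3. Every TAC heart lay below every sham heart for 11 of the 20 and above for 4, against 16.9% and 15.4% over all genes. Myh6 is among the 20 and is limited by the top of the scale. Mylk4, a heart kinase of the myosin light chain kinase family, read 11.78, 11.67 and 11.67 after sham surgery and 9.83, 9.62 and 10.06 after TAC, and fell by 1.87 ± 0.31 (adjusted p = 0.00248). Its relative Mylk3 fell by 0.84 ± 0.11, and cardiac troponin I, Tnni3, fell by 0.58 ± 0.08. The groups were separate for all 3. Of 12 cardiomyocyte markers 0 rose and 4 fell, with a median of -0.08, and 2 fell without sham replicate 1, sham replicate 3 or TAC replicate 2. Myh6 and Tnnt2 are among the 12 and read near the top of the scale, which limits what they can show. Mb, also among the 12, barely varied, its difference staying between 0.001 and 0.003 without 1 knockout array. Why it barely varied was not tested. Smco1, a membrane protein with coiled coils, read 9.83, 9.62 and 9.53 against 8.03, 7.72 and 8.10, and fell by 1.71 ± 0.18 (adjusted p = 0.000446).

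Ion channel genes fell widely. Of 20 potassium and sodium channel genes 13 fell and 1 rose, with a median of -0.54. The rise was lost without any 1 knockout array except TAC replicate 3, and without any 1 wild-type sham array. Kcnj3, a subunit of the acetylcholine-gated potassium channel, read 12.84, 13.89 and 12.68 after sham surgery and 10.71 to 11.92 after TAC, and fell by 1.92 ± 0.39 (adjusted p = 0.00715). Its partner Kcnj5 fell by 1.20 ± 0.23. This channel is known to be richest in atrial muscle, and the sham heart of highest Myl7 was also highest for Kcnj3. Without sham replicate 2 the fall of Kcnj3 was -1.55 (adjusted p = 0.0248). Kcnk3, a background potassium channel, read 12.35, 12.39 and 12.21 against 11.45, 11.23 and 11.43, and fell by 0.95 ± 0.12 (adjusted p = 0.000712). Kcnh2, which carries the rapid repolarizing current, fell by 0.88 ± 0.16, and the ATP-sensitive channel genes Abcc9 and Kcnj11 fell by 0.97 ± 0.13 and 0.59 ± 0.10. The pacemaker channel Hcn4 differed by -0.56 ± 0.18 (adjusted p = 0.073, and 0.0274 with the replicate block).

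Among 23 calcium handling genes 6 fell and 2 rose, with a median of -0.15, and 3 fell without sham replicate 1, sham replicate 3 or TAC replicate 2. The 2 rises were 1 without any single knockout array and without replicate 3 of the wild-type sham hearts or replicate 2 of the wild-type TAC hearts. Hrc, a calcium-binding protein of the sarcoplasmic reticulum, read 14.09, 14.19 and 14.41 after sham surgery and 13.20, 13.05 and 13.31 after TAC, and fell by 1.04 ± 0.12 (adjusted p = 0.000487). Ryr2, the calcium release channel, fell by 0.48 ± 0.07, and Trdn, its anchor triadin, fell by 0.58 ± 0.10. Stim2, a calcium sensor of the endoplasmic reticulum, rose by 0.73 ± 0.07. Atp2a2, the calcium pump SERCA2, read 19.45, 19.42 and 19.45 against 19.30, 19.27 and 19.30, without overlap, but its difference of -0.15 ± 0.06 did not pass (adjusted p = 0.137).

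Of 18 cardiac transcription factors 5 fell and 1 rose, with a median of -0.21. The count of rises was 0 without sham replicate 1, sham replicate 3 or TAC replicate 1, and 2 without TAC replicate 2 or wild-type TAC replicate 2 or 3. Tbx5, a T-box factor more abundant in atria and also a member of the atrial list, read 10.54, 11.36 and 10.34 after sham surgery and 9.77, 9.22 and 8.79 after TAC, and fell by 1.49 ± 0.32 (adjusted p = 0.0095). Sham replicate 2 was again highest. Prox1 fell by 0.75 ± 0.12, Mef2d fell by 0.51 ± 0.09 and the energy-gene regulator Esrrg fell by 0.60 ± 0.09.

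Genes of fatty acid use fell. Of 26 genes of fatty acid uptake and oxidation 23 fell and 0 rose, with a median of -0.65. The list mean ran from 14.21 to 14.32 in the sham hearts and from 13.43 to 13.56 in the TAC hearts. Acot2, a mitochondrial enzyme that frees fatty acids from coenzyme A, read 17.26, 17.00 and 17.04 after sham surgery and 15.34, 14.28 and 14.81 after TAC, and fell by 2.29 ± 0.23 (adjusted p = 0.000389). Acot1, its cytosolic near-copy, read 8.70, 8.92 and 8.81 against 7.16, 6.41 and 6.82, and fell by 2.02 ± 0.18. The groups were far apart for both, though probes of such close copies may read one another's transcripts. Slc27a1, a fatty acid transporter, fell by 1.53 ± 0.15, and Slc25a20, which carries acylcarnitines into mitochondria, fell by 1.18 ± 0.13. The oxidation enzymes Hadh and Decr1 fell by 0.83 ± 0.10 and 0.87 ± 0.10. Among 16 genes of triglyceride storage and lipolysis 6 fell and 0 rose. They included the lipases Ces1d, which fell by 2.25 ± 0.26, and Pnpla2, which fell by 1.68 ± 0.21.

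The respiratory chain fell by smaller steps. Of 25 complex I genes 21 fell and 0 rose, with a median of -0.44 and all differences between -0.95 and -0.26. Ndufs1, the largest subunit of complex I, read 15.19, 15.17 and 15.28 after sham surgery and 14.65, 14.52 and 14.78 after TAC, and fell by 0.56 ± 0.09 (adjusted p = 0.00247). Ndufa8 fell by 0.95 ± 0.16. In complexes II to IV 15 of 27 genes fell and 0 rose, with a median of -0.38, and 8 fell without sham replicate 3 or TAC replicate 2. Cox7a1, the muscle form of a cytochrome oxidase subunit, fell by 0.75 ± 0.13, and Sdha, the catalytic subunit of complex II, fell by 0.58 ± 0.10. Of 13 ATP synthase genes 7 fell, 4 without sham replicate 1 or sham replicate 3 and 3 without TAC replicate 2. For the mitochondrial ribosome 22 of 61 genes fell and 0 rose, with a median of -0.22. Without 1 knockout array that count was 11 (sham replicate 1), 9 (sham replicate 3), 14 (TAC replicate 1) and 8 (TAC replicate 2). It was 11 without both arrays of highest Myl7. Mrps35 fell by 0.65 ± 0.09.

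The TCA cycle and the breakdown of branched-chain amino acids, which feeds it, fell too. Of 21 genes of the TCA cycle and pyruvate entry 15 fell and 1 rose, with a median of -0.49. Suclg2, a subunit of succinyl-CoA ligase, fell by 0.85 ± 0.10, and Pdk2, a kinase that inhibits pyruvate dehydrogenase, fell by 0.87 ± 0.14. Pdk4, a kinase of the same enzyme, read 16.12, 17.40 and 17.25 after sham surgery and 15.17, 16.21 and 15.36 after TAC. The groups overlapped, and the difference of -1.34 ± 0.58 did not pass (adjusted p = 0.179). Of 18 genes of branched-chain amino acid breakdown 16 fell and 0 rose, with a median of -0.82, the lowest of the lists plotted. Bckdhb, a subunit of the dehydrogenase that commits these amino acids to breakdown, read 12.11, 11.93 and 12.12 against 10.74, 10.55 and 10.94, and fell by 1.31 ± 0.13 (adjusted p = 0.000389). Ivd, the dehydrogenase of the leucine route, read 12.60, 12.35 and 12.68 against 11.34, 11.13 and 11.39, and fell by 1.25 ± 0.12. Neither gene overlapped between the surgeries.

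**Figure D4:**
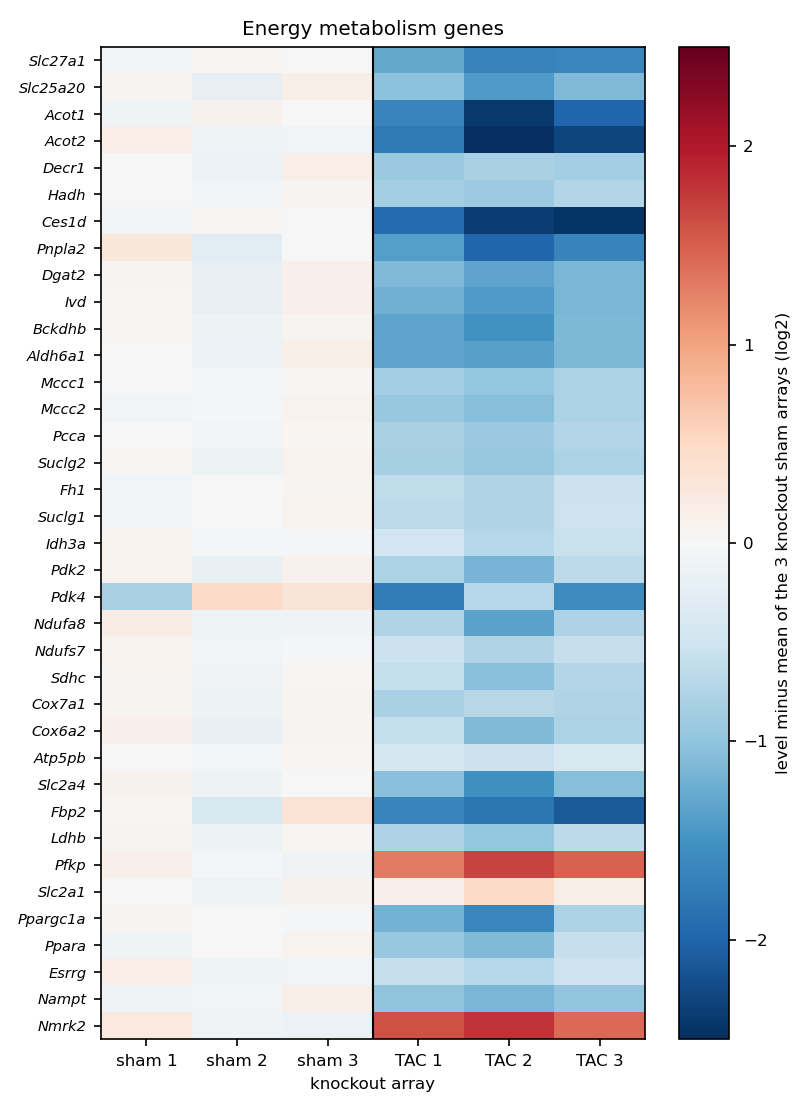
Heat map of 37 energy metabolism genes on the 6 knockout arrays, coloured by log2 signal minus the gene's mean over the 3 sham arrays (blue lower, red higher). Pfkp and Nmrk2 stand out as red in all 3 TAC hearts, and Pdk4 varies within both groups.

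Glucose genes had a median near that of all genes, but more were called lower than higher. Of 24 genes of glucose uptake and glycolysis 6 fell and 1 rose, against 5.68% and 7.08% over all genes. The median was -0.003, with 12 differences positive, and 6 fell in each fit without 1 knockout array. Pfkp, the platelet-type phosphofructokinase, read 8.77, 8.58 and 8.55 after sham surgery and 9.93, 10.31 and 10.11 after TAC, a rise of 1.48 ± 0.17 (adjusted p = 0.000446), while its muscle counterpart Pfkm fell by 0.48 ± 0.10. Slc2a4, the insulin-responsive transporter GLUT4, read 12.90, 12.65 and 12.80 against 11.74, 11.25 and 11.73, and fell by 1.21 ± 0.15. Slc2a1, the transporter GLUT1, differed by 0.25 ± 0.12 and did not pass. Fbp2, the muscle fructose bisphosphatase, fell by 1.86 ± 0.22. In NAD salvage the genes split. Nmrk2, a nicotinamide riboside kinase induced in failing heart, read 6.36, 6.03 and 5.99 against 7.71, 7.93 and 7.54, a rise of 1.60 ± 0.15 (adjusted p = 0.000389). Nampt, the rate-limiting enzyme of the usual salvage route, fell by 1.05 ± 0.14.

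Regulators of the energy genes fell with them. Of 17 such regulators 11 fell and 0 rose, with a median of -0.60, and 7 fell without sham replicate 1, sham replicate 3 or TAC replicate 2. Ppargc1a, the co-activator PGC-1alpha, read 15.27, 15.18 and 15.16 after sham surgery and 14.03, 13.58 and 14.41 after TAC, and fell by 1.20 ± 0.18 (adjusted p = 0.00129). Ppara, the lipid-sensing receptor PPARalpha, read 9.97, 10.09 and 10.16 against 9.13, 8.97 and 9.49, and fell by 0.88 ± 0.17. TAC replicate 2 was lowest and TAC replicate 3 highest of the TAC hearts for both. Of 17 circadian clock genes 0 passed, while 4 fell without wild-type TAC replicate 3, and 1 fell without wild-type sham replicate 3 or replicate 2 of the wild-type TAC hearts. Nr1d1, the clock repressor REV-ERBalpha, differed by -1.06 ± 0.34 (adjusted p = 0.0619) with no overlap between the groups.

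Stress and protein turnover genes gave a mixed picture. Of 19 genes of muscle atrophy and ubiquitin ligases 12 fell and 0 rose, with a median of -0.56. Asb15, a ubiquitin ligase adaptor of striated muscle, read 14.19, 13.71 and 13.94 after sham surgery and 12.48, 11.95 and 12.58 after TAC, and fell by 1.61 ± 0.17 (adjusted p = 0.000419). Klhl38 fell by 1.59 ± 0.23. The proteasome stayed near the background, with 2 of 34 genes higher, 0 lower and a median of 0.01. Of 15 cytosolic heat shock genes 1 rose, a share near the 7.08% over all genes, and 0 rose without sham replicate 1. In the list of endoplasmic reticulum chaperones and secretory load 5 of 23 rose and 2 fell, and 3 rose without both arrays of highest Myl7. Of the 2 falls 1 was lost without any 1 knockout array except TAC replicate 1, and without wild-type sham replicate 1 or 2 or wild-type TAC replicate 2. Kdelr3, which returns chaperones to the reticulum, rose by 1.36 ± 0.19, while Herpud1, of its degradation pathway, fell by 1.36 ± 0.26. Among 25 oxidant defence genes 7 rose and 6 fell. The 7 were 4 without sham replicate 3 and 3 without both arrays of highest Myl7. The 6 were 3 without sham replicate 1, sham replicate 3 or TAC replicate 2. Nox4, an enzyme that makes hydrogen peroxide, rose by 1.95 ± 0.31, and Cat, catalase, which breaks it down, fell by 0.64 ± 0.11. The lysosomal cathepsins Ctss, Ctsz and Ctsk rose by 1.98 ± 0.22, 1.59 ± 0.17 and 1.73 ± 0.24.

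Inflammatory genes rose in part. Of 29 chemokines and receptors 8 rose and 0 fell, and 5 rose without sham replicate 2. Ccr2, the receptor of recruited monocytes, read 5.39, 5.34 and 5.14 after sham surgery and 7.45, 8.19 and 6.94 after TAC, a rise of 2.24 ± 0.29 (adjusted p = 0.000718). Its ligand Ccl12 read 5.74, 6.35 and 5.14 against 7.85, 8.60 and 7.76, a rise of 2.33 ± 0.36. TAC replicate 2 was highest for both genes. Of 20 cytokines and receptors 7 rose and 2 fell, and 4 rose without sham replicate 3 or TAC replicate 2. Only 3 rose without both arrays of highest Myl7. The 2 falls were 1 without any knockout array except TAC replicate 1. Il6, an inflammatory cytokine, read 3.74, 3.56 and 3.71 against 4.80, 5.03 and 5.38, a rise of 1.40 ± 0.16 (adjusted p = 0.000446) on a dim probe set. Il15, a lymphocyte growth factor made by muscle, fell by 1.14 ± 0.20. Of 14 complement genes 8 rose and 1 fell, with a median of 0.71. The 8 were 5 without sham replicate 3 or TAC replicate 2, and 2 without both arrays of highest Myl7, while 2 fell without TAC replicate 1. C1qa, which starts the classical route, rose by 1.14 ± 0.20. Of 14 secreted serpins and acute phase genes 8 rose, and 5 without sham replicate 3, TAC replicate 1 or TAC replicate 2. Only 3 of them rose without both arrays of highest Myl7.

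Interferon-responsive genes rose in 11 of 20 cases and fell in 0, with a median of 0.59 and all 20 differences positive. Ifi204, a DNA sensor, read 9.15, 9.27 and 9.16 after sham surgery and 10.59, 11.09 and 10.31 after TAC, a rise of 1.47 ± 0.20 (adjusted p = 0.000876). Irf7, which drives interferon genes, read 5.87, 6.04 and 6.05 against 7.01, 7.12 and 6.82, a rise of 0.99 ± 0.16. The surgeries were separate for both, with TAC replicate 2 highest. Bst2 (tetherin) rose by 1.44 ± 0.25.

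Markers of immune cells moved unevenly. In the list of monocytes and recruited macrophages 4 of 9 rose and 0 fell, among them Fn1, which fibroblasts also make. Without sham replicate 3 only 2 rose, the calls of the integrin chains Itgam and Itgax being lost, and that of Itgax was also lost without sham replicate 1 or TAC replicate 2. Its mean level ran from 6.76 to 6.93 in the sham hearts and from 7.52 to 7.92 in the TAC hearts. Of 11 resident macrophage markers 4 rose and 1 fell. Cd68, a lysosomal protein of all macrophages, rose by 0.96 ± 0.16 and the mannose receptor Mrc1 by 0.92 ± 0.19, while Lyve1 differed by -0.30 ± 0.29 with overlap. Timd4, a marker of self-renewing macrophages, fell by 0.41 ± 0.12 (adjusted p = 0.0455), a call lost in 5 of the 6 fits that left out 1 knockout array, all but the one without sham replicate 3, and with the replicate block (0.0662). Of 9 neutrophil markers 1 rose, against 7.08% over all genes, the growth factor receptor Csf3r by 0.45 ± 0.09. Of 10 T and NK cell and 9 dendritic cell markers 0 passed. Their list means, 4.43 to 4.65 and 5.02 to 5.17 on the knockout arrays, lay below the median of 5.93 over negative control probe sets. So did those of the neutrophil (4.70 to 5.03) and B cell (4.52 to 4.78) lists. At such levels an absence of calls says little about these cells. Of 6 B cell markers 1 passed. That call, of Ighm, was lost without any 1 sham array or without TAC replicate 2, and the defining receptor chain Cd79a differed by 0.01 ± 0.11.

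Genes of cell division rose from a low base. The mean over the mitosis list lay between 4.85 and 5.11 in the sham hearts and between 5.30 and 5.96 in the TAC hearts. On all arrays but TAC replicate 3 it lay below the median of 5.93 over negative control probe sets. Of 24 mitosis genes 18 rose and 0 fell, with a median of 0.63. The count was 10 without sham replicate 1, sham replicate 3 or TAC replicate 3, and 9 without TAC replicate 2. Mki67, a protein of cycling cells, read 5.91, 6.85 and 6.02 after sham surgery and 7.71, 9.30 and 9.42 after TAC, a rise of 2.55 ± 0.47 (adjusted p = 0.00431). Top2a, the topoisomerase of dividing cells, read 4.94, 5.45 and 5.17 against 5.96, 6.98 and 7.09, a rise of 1.49 ± 0.26. Ccna2, cyclin A2, read 5.49, 5.62 and 5.37 against 6.26, 6.92 and 7.11, a rise of 1.27 ± 0.19. For all 3 genes TAC replicate 1 was lowest of the TAC hearts and still above every sham heart. Of 21 DNA replication genes 5 rose and 0 fell. Tyms and Mcm6 rose by 0.85 ± 0.12 and 0.92 ± 0.14. That count was 2 without sham replicate 1, sham replicate 2, TAC replicate 2 or TAC replicate 3, 3 without sham replicate 3 and 10 without TAC replicate 1. It was 9 without both arrays of highest Myl7 and 3 with the Myl7 level as a covariate. In the immediate early list 7 of 19 rose and 0 fell, among them Myc, higher by 0.78 ± 0.14. Of 31 cytosolic ribosomal protein genes 7 rose. The count was 4 after quantile normalization, 4 without any 1 knockout sham array, and 4 without knockout TAC replicate 2, wild-type sham replicate 1 or wild-type sham replicate 2. It was also 4 with the Myl7 level as a covariate or without both arrays of highest Myl7.

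Vessel and other cell types moved less. Of 14 endothelial markers 2 rose and 1 fell, with a median of 0.10, and the junction protein Pecam1 rose by 0.47 ± 0.09. The fall, of the water channel Aqp1, was lost in all 6 fits without 1 knockout array. The other rise, of the surface sialomucin Emcn, was lost in 5 of them, all but that without TAC replicate 1, and also without any 1 wild-type sham array or wild-type TAC replicate 2. With TAC replicate 1 or wild-type TAC replicate 1 left out 3 rose. The endothelial list mean lay between 11.40 and 11.46 after sham surgery and between 11.44 and 11.55 after TAC. Of 9 smooth muscle markers 0 rose and 1 fell, with a median of 0.16 and 6 differences positive. The fall was of Pln (-0.30 ± 0.08), which is also on the cardiomyocyte list. Its call was lost without sham replicate 1, sham replicate 3 or TAC replicate 2. The smooth muscle myosin Myh11 differed by 0.16 ± 0.32. Of 7 pericyte markers 1 rose, Cspg4 by 0.63 ± 0.11, and 1 fell, the channel subunit Abcc9 already given. Of 6 lymphatic endothelial markers 2 rose, Pdpn and Flt4, and 1 fell, Prox1, against 7.08% and 5.68% over all genes. The call of Flt4 was lost without both arrays of highest Myl7. In the endocardial (5 measured), mast cell (6), Schwann and neuronal (7) and conduction system (8) lists 1 gene each rose and 0 fell. Each of those calls was lost in some fits without 1 knockout array. In the lists of epicardial (7 measured), adipocyte (8), erythroid and platelet (5), and thymus and lung (3) genes 0 passed. The epicardial and the thymus and lung list means were dim, at 4.76 to 5.55 and 3.89 to 4.06 on the knockout arrays. The adipocyte marker Adipoq differed by -0.09 ± 0.17 and the lung marker Sftpc differed by -0.10 ± 0.14.

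Beside these values stand those of wild-type hearts under the same surgery. There 48 genes passed, 0.178% of those tested, 18 higher (0.0667%) and 30 lower (0.111%), with a median over all genes of 0.02. That count moved between 0 and 264 when 1 of the 12 arrays was left out, the highest without wild-type TAC replicate 3. The TAC arrays lay above sham for 9.03% of genes and below for 7.07%, together 16.1%, against 32.3% in the knockout. Of the 3444 genes that passed in the knockout, 3211 had a difference of the same sign in the wild type, and 40 also passed there in the same direction. Of the 83 lists with at least 5 measured members 20 had a median beyond 0.5 in size in the knockout. Because these lists were picked by their knockout medians and drawn up with earlier results of these arrays known, their wild-type medians are given as values only. For matricellular proteins the medians were 1.68 in the knockout and 0.74 in the wild type, and for activated fibroblast markers 3.24 and 1.29. For fatty acid use they were -0.65 and -0.33, and for branched-chain amino acid breakdown -0.82 and -0.35.

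**Figure D5:**
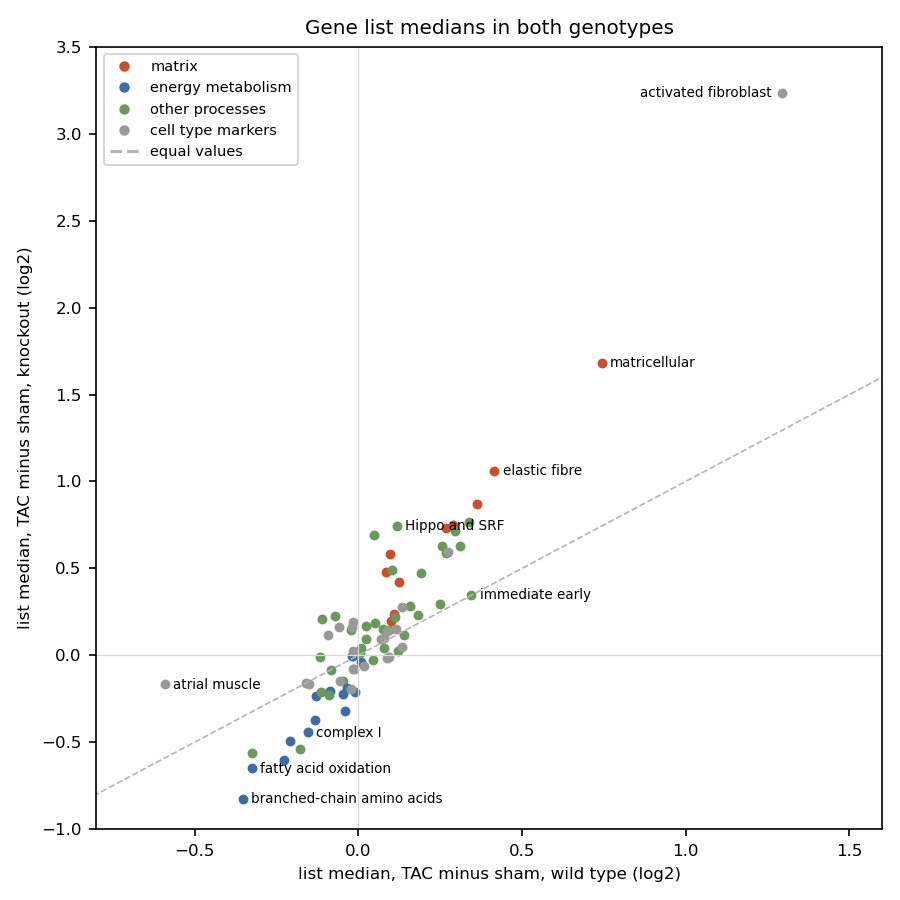
Median TAC minus sham difference (log2) of each of 83 gene lists in knockout hearts (vertical axis) and wild-type hearts (horizontal axis), 1 point per list, with a dashed line of equal values. Activated fibroblast markers lie at 3.24 in the knockout and 1.29 in the wild type.

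The difference between the responses was tested with the interaction term over all genes. By limma 0 genes passed (0%), the smallest adjusted p was 0.259, and 2962 genes had an unadjusted p under 0.05. Without wild-type TAC replicate 2, 151 genes passed. Postn rose by 4.57 ± 0.45 in the knockout, and its wild-type difference was 2.56 (interaction adjusted p = 0.29). For Col3a1 the differences were 3.81 and 1.49 (0.259) and for Acta1 2.97 and 2.35 (0.69). Mmp3 rose by 1.73 ± 0.20 in the knockout and differed by 0.10 in the wild type (0.259). Nmrk2 rose by 1.60 against a difference of 0.33 (0.259). Cilp in the wild type varied widely, reading 8.42, 8.42 and 7.94 after sham surgery and 10.28, 12.65 and 8.89 after TAC. The genes passing in the knockout and not in the wild type are thus not shown to respond differently between the genotypes.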

How the data were processed

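Total RNA (250 ng) from 12 mouse hearts was labelled with biotin and hybridized by the authors to Affymetrix Clariom D mouse arrays. The deposited values are log2 signals from Affymetrix Expression Console, per the submitters' processing notes; their normalization and summarization are not given in the sources used here. The scale was read from the values (1.27 to 19.93). Array medians ran from 5.06 to 5.19, and replicates correlated at 0.994 to 0.997. The number of arrays, 3 a group, limits the precision. Whether RNA was handled in batches was not given in the sources used here.

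Of 65527 probe sets 6732 controls were left out. Of the rest 27268 carried 1 symbol, 1932 several and 29595 none. Each gene was its brightest probe set with 1 symbol, giving 26989 genes, 198 with several, with no filter on dim genes. Adam12 was tested in a separate fit over all probe sets. Groups were compared with limma 3.58.1 (R 4.3.3; lmFit, eBayes, 1 mean per group over all 12 arrays, 2-sided, Benjamini-Hochberg over all genes) and called at an adjusted p under 0.05. The procedure was tested on simulated data. Errors are limma's standard errors (n = 3 a group). Levels of different probe sets are not compared. Same-numbered knockout arrays deviated together (r = 0.254, 0.143 and 0.173, pairing by the labels' numbers), so a fit with the replicate block was set beside the main one where it changed a call.

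The members and the 85 gene lists (1631 entries, 1362 measured, 44 on probe sets shared with another symbol, 225 not analysed here) were chosen with earlier results of these data known. Named were the 15 largest rises and 15 largest falls among called genes whose groups do not overlap (predicted genes, small RNAs, receptor and immunoglobulin segments, pseudogenes and receptors of smell left out), up to 6 members of each list with the smallest p, defining cell type markers, and a fixed set (Adam12, Nppa, Nppb, Acta1, Myh6, Myh7, Col1a1, Col3a1, Postn, Atp2a2, Ryr2, Ppargc1a, Pdk4, Tgfb1, Tgfb2, Mki67). Alternatives were other scalings, a filter on dim genes, other probe set rules and variance models, array weights, the replicate block, each genotype alone, leaving out each array, and, chosen after seeing the data, Myl7 as a covariate and leaving out both knockout arrays of highest Myl7.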

Additional observations from a re-analysis of the deposited data

Results flagged for a closer look

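Gjc1, a gap junction gene of the conduction system, was higher by 0.262 after TAC in the knockout (adjusted p = 0.0329 by limma) and lower in the wild type (-0.15), with every TAC heart on the opposite side of sham in the 2 genotypes. The interaction did not pass for it (adjusted p = 0.259), and its call in the knockout was lost in 5 of the 6 fits without 1 knockout array, all but that without sham replicate 2. It was also lost after quantile normalization, after centring each array on its median, with the 6 knockout arrays alone and without both arrays of highest Myl7.

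Cd2, a T cell surface gene, differed by -0.201 in the knockout without passing (adjusted p = 0.139) and by 0.22 in the wild type, with TAC hearts below sham in the first and above in the second (interaction adjusted p = 0.268). Shox2, a pacemaker transcription factor, differed by 0.125 in the knockout and by -0.08 in the wild type in the same way (interaction adjusted p = 0.46). The opposite directions were not shown to differ by the interaction test.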

How the results depend on the processing

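In the knockout 3444 genes passed (1910 higher, 1534 lower). The count stayed within 1.5 times of this under the other scalings, the filter on dim genes, both probe set rules, the trended variance, array weights, the 6 knockout arrays alone and Myl7 as a covariate. With the replicate block it was 3868. A test that the change exceeds 1.5-fold left 116 (85 higher, 31 lower). Without both knockout arrays of highest Myl7 it was 2186 (1216 and 970). Leaving out 1 array gave 2098 (TAC replicate 2) to 3688 genes, with 1221 to 2043 higher and 877 to 1645 lower. Of 496 named genes 348 passed. Of these 59 lost the call without some knockout array, 274 kept it under each alternative run gene by gene, and 0 of the genes that passed turned sign.

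In the wild type 48 passed by limma (3330 at an unadjusted p under 0.05). The count was 191 among genes above background, 352 with array weights and 266 with the replicate block. It was 0 with the 6 wild-type arrays alone, 0 with Myl7 as a covariate and 0 without both knockout arrays of highest Myl7. Leaving out 1 array gave 0 to 264. Same-numbered wild-type arrays correlated at 0.104, -0.016 and 0.186. Between the genotypes same-numbered arrays correlated at -0.068 to 0.315 and differently numbered ones at -0.268 to 0.2. Whether the numbers mark a pairing is not known. The interaction gave 0 genes under the alternatives tried, except that leaving out 1 array gave 0 to 151. The block ended the call of Gadd45g (adjusted p = 0.0588) and Timd4 (0.0662) among named genes, and added 12: Nppa, Fmod, Dcn and Hcn4, given above, and Ugp2 (0.00851), Kcna1 (0.0139), Cryab (0.0233), Cntn2 (0.0239), Zmat3 (0.0284), Bmp6 (0.0301), Nrg4 (0.0425) and Vsnl1 (0.0466). The cause of these changes was not tested. Signals near the top of the scale limit what Nppa, Myh6 and Atp2a2 can show.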

Other observations

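Mb, myoglobin, read 10.47 or 10.48 on all 6 knockout arrays, with a TAC difference of 0.00 ± 0.06. Tnnt2, cardiac troponin T, read between 19.59 and 19.65 on these arrays, close to the table's highest value of 19.93.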
